A study of Mus musculus with 34 samples.

Results

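The 10 genes described here encode the Fc gamma receptors Fcgr1, Fcgr2b, Fcgr3 and Fcgr4, their shared signalling chain Fcer1g, the Toll-like receptors Tlr2, Tlr4 and Tlr7, the co-receptor Cd14 and the adaptor Myd88. They were taken by symbol from the 23951 genes of the deposited tables, and all 10 were found. The series asked how loss of the histone deacetylase HDAC1 acts in the aged mouse brain and in 5XFAD mice, a model of Alzheimer's disease in which the Thy1 promoter drives mutant human transgenes in neurons. RNA was sequenced from the hippocampus of 20 mice in 4 groups. Control mice (n = 4, 13 to 14 months) had the genotype Hdac1f/f and carried no Cre. Hdac1 cKO mice (n = 5, 13 to 14 months) were Hdac1f/f, Nestin-Cre. 5XFAD mice (n = 6, 13 months) were Hdac1f/f, 5XFAD. Compound transgenic mice (n = 5, 13 months) were Hdac1f/f, Nestin-Cre, 5XFAD. All groups thus share the floxed Hdac1 allele, and by the study's methods aged animals were male. Nestin-Cre acts in the neural lineage, and the study describes deletion in neurons and astrocytes, so microglia, where most of these receptors are known to be made, are not its target.

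Fc gamma receptors bind the constant part of IgG. Fcgr1, Fcgr3 and Fcgr4 are activating receptors that need the Fcer1g chain, whose ITAM motif recruits the kinase Syk, whereas Fcgr2b carries an inhibitory ITIM that recruits phosphatases such as Inpp5d. Toll-like receptors sense microbial products and products of damaged tissue: Tlr2 and Tlr4 at the cell surface, helped by Cd14, and Tlr7 in endosomes, where it binds single-stranded RNA, and all of these signal through Myd88. In the brain both families are mainly known from microglia and other macrophages.

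A group of the genes, Fcgr2b, Fcgr4, Fcgr3 and Fcer1g, lies close together on the mouse genome. In the mm9 annotation Fcgr2b spans chr1:172890689-172906678 on the minus strand, Fcgr4 chr1:172949051-172959892 on the plus strand, Fcgr3 chr1:172981300-172995066 on the minus strand and Fcer1g chr1:173159703-173164496 on the minus strand. Fcgr1 lies at chr3:96086832-96098179 and Tlr2 at chr3:83640195-83645689, both on the minus strand, Tlr4 at chr4:66488618-66591318 on the plus strand, Myd88 at chr9:119245052-119250529 and Tlr7 at chrX:163742861-163768490, both on the minus strand. RefSeq promoters (250 bases before to 50 after the transcript start, build GRCm38.p6) were matched by symbol for 7 of the 10 genes, with 8 promoters in all. Those of the 4 Fc receptor chains that differed most, on the log2(FPKM + 1) scale described below, between mice with and without the 5XFAD transgenes are shown. By the ratio of mean FPKM, Fcgr4 differed more than Fcgr1 and Fcer1g. Each promoter is given 5′ to 3′ on the strand of its gene. Capitals mark GAGGAA or its reverse complement, the core letters of a site for the myeloid factor PU.1. The 4 windows are Fcgr3 at chr1:171059354-171059653, Fcgr1 at chr3:96293920-96294219, Fcgr2b at chr1:170976022-170976321 and Fcer1g at chr1:171234300-171234599, all on the minus strand of GRCm38.p6.
Fcgr3: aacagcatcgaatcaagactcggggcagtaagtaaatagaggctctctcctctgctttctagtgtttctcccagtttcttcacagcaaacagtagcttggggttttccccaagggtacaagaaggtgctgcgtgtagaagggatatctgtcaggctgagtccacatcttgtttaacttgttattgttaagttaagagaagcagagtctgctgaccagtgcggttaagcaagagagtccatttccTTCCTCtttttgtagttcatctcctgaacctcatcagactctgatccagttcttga
Fcgr1: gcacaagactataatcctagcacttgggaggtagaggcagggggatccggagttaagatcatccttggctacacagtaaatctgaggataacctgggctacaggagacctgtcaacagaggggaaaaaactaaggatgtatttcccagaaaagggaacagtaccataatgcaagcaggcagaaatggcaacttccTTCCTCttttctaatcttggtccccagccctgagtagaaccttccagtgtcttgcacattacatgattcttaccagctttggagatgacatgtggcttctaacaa
Fcgr2b: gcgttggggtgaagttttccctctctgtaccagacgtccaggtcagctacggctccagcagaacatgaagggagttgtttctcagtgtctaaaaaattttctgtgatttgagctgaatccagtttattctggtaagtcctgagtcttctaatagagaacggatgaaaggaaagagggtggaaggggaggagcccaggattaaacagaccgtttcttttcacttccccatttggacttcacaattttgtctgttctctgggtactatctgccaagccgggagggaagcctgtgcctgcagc
Fcer1g: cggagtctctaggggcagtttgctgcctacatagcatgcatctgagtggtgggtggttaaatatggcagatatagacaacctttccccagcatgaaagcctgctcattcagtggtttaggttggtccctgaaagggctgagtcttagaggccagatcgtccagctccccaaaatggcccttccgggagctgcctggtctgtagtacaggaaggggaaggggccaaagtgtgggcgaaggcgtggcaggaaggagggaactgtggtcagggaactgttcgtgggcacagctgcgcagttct
GAGGAA was present on one of the strands in 4 of the 8 promoters, belonging to 3 of the 7 genes (Fcgr1, Fcgr3 and Fcgr4), against 28.3% of all 32851 promoters. The window of Fcgr3 shown and its other window (chr1:171059345-171059644) overlap and hold the same match, which is therefore counted under both. Neither TGAGTCA, the site of AP-1, nor GGGACTT, part of an NF-kB site, was found in any of the 8 on either strand, against 5.2% and 5.44% of all promoters. These are matches of letters within a short window.

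Levels are FPKM, the number of sequenced fragments of a gene scaled by its transcript length and by the library's total. The study's methods name a 3′ digital gene expression method for libraries of this age, in which reads come from the end of a transcript, so FPKM compares 1 gene between mice better than it compares different genes. Hdac1 was lower in every Hdac1 cKO and compound mouse (1.15 to 3.03 FPKM) than in every mouse without Cre (5.91 to 10.7 FPKM), and Thy1, which also picks up the transgenes' Thy1 sequence, was at 1563 to 2357 FPKM in 5XFAD and compound mice and at 303 to 388 FPKM in the other mice. Depth, read from the steps between low FPKM values, ranged from 0.753 to 2.35 times that of control mouse 1. The control and Hdac1 cKO libraries carry an earlier block of sample numbers than the 5XFAD and compound libraries, so any difference between these 2 sets of libraries and the 5XFAD transgenes cannot be told apart. The choroid plexus gene Ttr, a sign of tissue at the edge of the dissection, ranged from 53.8 to 20146 FPKM between mice, was 12903 FPKM or more in control mice 2, 3 and 4 and in compound mouse 1 (13910 FPKM), and its part in the results was not tested. Hippocampal tissue holds many cell types, so more cells of a type and more RNA per cell cannot be told apart.

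**Figure D1:**
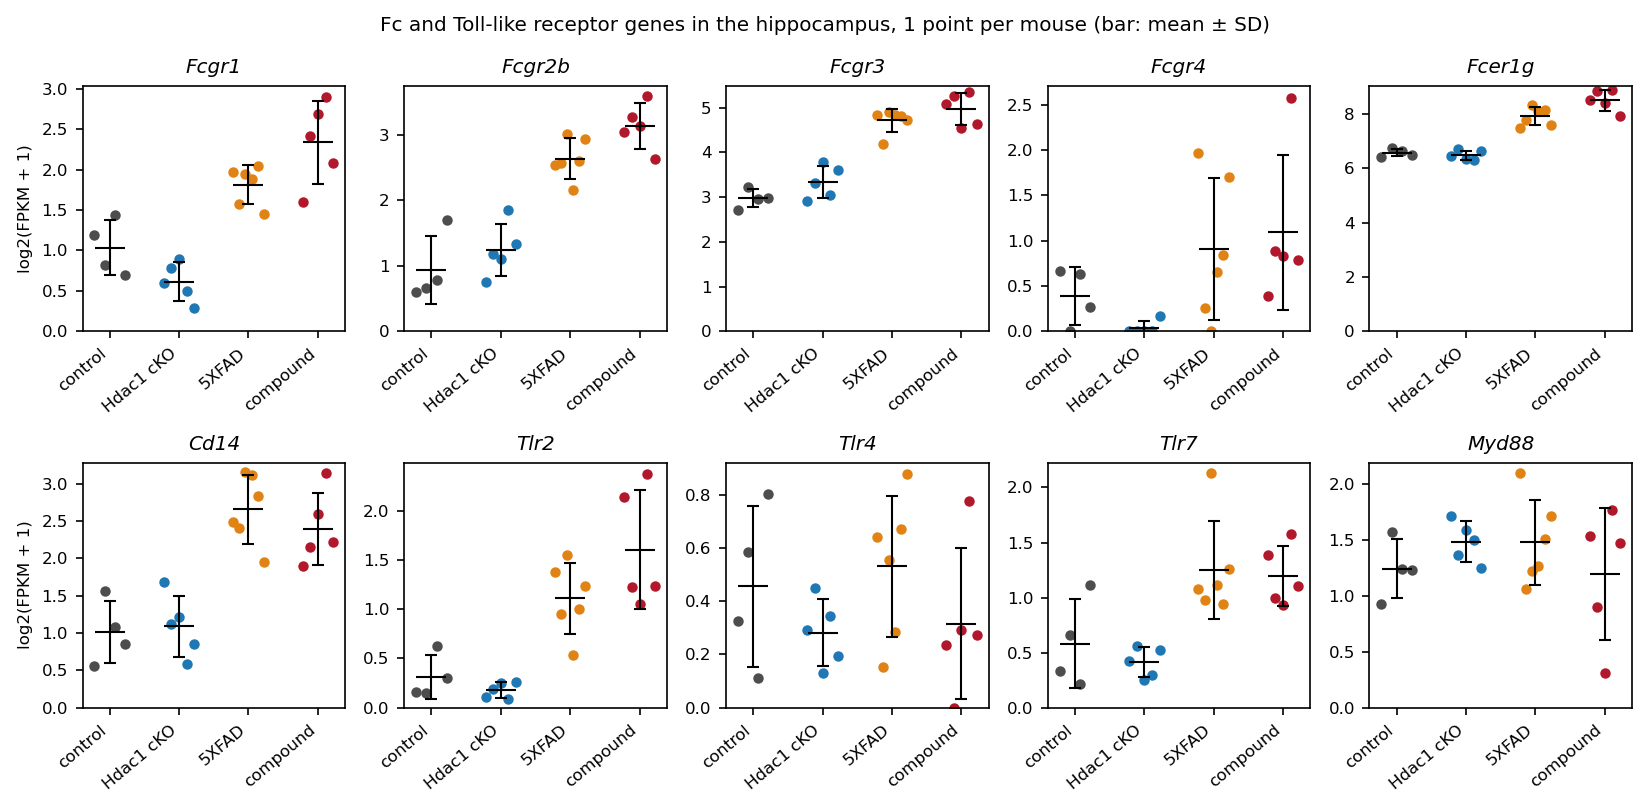
Level of each of the 10 genes in the hippocampus as log2(FPKM + 1), with 1 point per mouse, the 4 groups on the horizontal axis, and bars for the mean and SD. Fcgr2b, Fcgr3, Fcer1g and Cd14 of 5XFAD and compound mice lie above every control and Hdac1 cKO mouse, whereas Tlr4 and Myd88 overlap in all 4 groups.

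The comparison of 5XFAD with control mice asks what the transgenes change where Hdac1 is intact. Of the 10 genes, 4 rose, namely the activating receptor Fcgr3, the inhibitory receptor Fcgr2b, the signalling chain Fcer1g and the co-receptor Cd14, by 2.58- to 5.25-fold in mean FPKM. The highest ratio, of Fcgr2b, would be larger without control mouse 4 (2.26 FPKM), which raised the control mean to 1.02 FPKM (median 0.653). Fcgr1, Fcgr4, Tlr2, Tlr7 and Myd88 did not pass the test, although the mean FPKM of Tlr2 was 4.82 times that of control mice, a ratio within that range, and Tlr4 was under the minimum level for it. The Tlr2 ratio would likewise be larger without control mouse 3 (0.547 FPKM, against a control mean of 0.251 FPKM). Of all genes tested, 0.667% were higher at an adjusted p under 0.05. By a looser rule, a fold of 1.5 with an unadjusted p under 0.05, 7 of the 10 genes were higher, against 1.72% of all genes. Among the 7 was Tlr2, which reached the minimum level only through the 5XFAD mice.

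Fcgr3, the activating receptor for IgG immune complexes, was at 5.60, 8.40, 6.81 and 6.91 FPKM in control mice 1 to 4. In the 5XFAD mice it ran from 17.3 through a median of 27.3 to 28.7 FPKM. The lowest 5XFAD mouse thus stood well above the highest control mouse. The log2 fold change was 1.74 (SE 0.15, limma, adjusted p = 4.16e-05), on the log2(FPKM + 1) scale used for every such value here.

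Fcer1g, without which the activating receptors do not signal or reach the surface in full, was the gene with the highest FPKM of the 10. It was at 84.9, 105, 99.5 and 89.6 FPKM in control mice and from 179 through 246 to 322 FPKM in 5XFAD mice. Again the groups did not overlap, and the log2 fold change was 1.33 (SE 0.16, limma, adjusted p = 0.000513).

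Fcgr2b, the only inhibitory receptor among the 4, was at 0.510, 0.582, 0.724 and 2.26 FPKM in control mice, so that control mouse 4 stood apart from the other 3. The 5XFAD mice ran from 3.49 through 5.02 to 7.10 FPKM, all above that mouse. Its log2 fold change was 1.70 (SE 0.23, limma, adjusted p = 0.00204). With the replicate number as a block, although these numbers do not pair the mice, it was 1.64 and not called (limma, adjusted p = 0.103).

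Reads could be shared between the 2 receptors. Of 886 windows of 50 bases in the last 500 bases of the Fcgr2b transcripts, 33 occur word for word in Fcgr3, and none of the windows of the other 9 genes occurs in a second gene.

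Fcgr1, the high-affinity receptor for IgG, was at 1.29, 0.763, 1.70 and 0.613 FPKM in control mice and from 1.74 through 2.77 to 3.12 FPKM in 5XFAD mice. The groups did not overlap, although the lowest 5XFAD mouse was just above control mouse 3. The log2 fold change of 0.78 (95% interval 0.37 to 1.19) did not pass the test across all genes (limma, adjusted p = 0.109). Fcgr4, an activating receptor of monocytes and macrophages, was at 0.586, 0, 0.554 and 0.200 FPKM in control mice and from 0 through 0.681 to 2.92 FPKM in 5XFAD mice, with wide overlap and a log2 fold change of 0.51 (95% interval -0.26 to 1.29; limma, adjusted p = 0.644). Its values rest on very few reads: the steps of the FPKM scale correspond to 0 to 2 fragments per control mouse and 0 to 18 per 5XFAD mouse, counted up to a common factor that the files do not fix.

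Cd14, which passes lipopolysaccharide and other ligands to Tlr4 and Tlr2, was at 0.474, 1.95, 1.12 and 0.808 FPKM in control mice. The 5XFAD mice ran from 2.89 through 5.37 to 7.92 FPKM, so none fell within the control range. The log2 fold change was 1.65 (SE 0.25, limma, adjusted p = 0.00585).

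The receptors that Cd14 serves were low. Tlr2, which with partner receptors binds lipoproteins, was at 0.116, 0.106, 0.547 and 0.237 FPKM in control mice and from 0.452 through 1.18 to 1.93 FPKM in 5XFAD mice. Only control mouse 3 reached into the 5XFAD range, and the log2 fold change of 0.80 (95% interval 0.34 to 1.25) had an adjusted p of 0.150 (limma). With a pseudocount of 0.1 FPKM in place of 1 it was 1.95 (limma, adjusted p = 0.133), and as the log2 ratio of mean FPKM 2.27. Tlr4, the lipopolysaccharide receptor, was at 0.253, 0.4996, 0.0797 and 0.746 FPKM in control mice and from 0.113 through 0.515 to 0.836 FPKM in 5XFAD mice. These ranges nearly coincide, and because Tlr4 stayed under the minimum mean of 0.5 FPKM it was compared on its own, with means that differed by 0.0701 FPKM (two-sided exact permutation test, p = 0.686).

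Tlr7, the endosomal RNA sensor, was at 0.256, 0.585, 0.162 and 1.16 FPKM in control mice and from 0.922 through 1.14 to 3.37 FPKM in 5XFAD mice. Control mouse 4 lay inside the 5XFAD range, and the log2 fold change of 0.67 (95% interval 0.12 to 1.22) had an adjusted p of 0.370 (limma). Myd88, the adaptor that all of these Toll-like receptors share, was at 0.901, 1.97, 1.36 and 1.35 FPKM in control mice and from 1.09 through 1.63 to 3.30 FPKM in 5XFAD mice. It overlapped widely and its log2 fold change was 0.24 (95% interval -0.22 to 0.70; limma, adjusted p = 0.727).

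Across the 9 genes that passed the minimum level the median log2 fold change was 0.80, against -0.01 over the 14402 genes tested. Of these 9, Fcgr4 and Tlr2 (control means of 0.335 and 0.251 FPKM) reached that level only through the 5XFAD mice. The median is therefore not independent of that filter. In 5 of the 10 genes (Fcgr1, Fcgr2b, Fcgr3, Fcer1g and Cd14) every 5XFAD mouse was above every control mouse, which held for 1.92% of all genes tested. The summed level of 11 microglia markers moved the same way, from 152 to 180 FPKM in control mice to 250 to 312 FPKM in 5XFAD mice, and 4 of the 11 rose, among them Csf1r, Cx3cr1 and Olfml3 (by 1.08, 0.95 and 0.90 on the log2 scale). The markers P2ry12 (log2 fold change 0.09) and Tmem119 (0.36) did not pass the test. The part of these markers in the result was not tested. Markers of other blood-derived cells were low but not all at 0. The 4 monocyte markers summed to 0.424 to 0.785 FPKM in control, 0.0841 to 2.70 FPKM in 5XFAD and 0 to 3.29 FPKM in compound mice, with Chil3 at 0 in 19 of 20 mice, Ly6c2 in 5 and Ccr2 in 2. Ly6c2, the only one of them tested, had a log2 fold change of 0.57 in 5XFAD mice (limma, adjusted p = 0.472). The T cell markers summed to 1.09 to 2.20 FPKM in control, 0.800 to 2.83 FPKM in 5XFAD and 0.968 to 3.50 FPKM in compound mice, with Cd3e at 0 in 17 mice and Cd3d above 0 in every mouse. The B cell markers summed to 0 to 1.97 FPKM in control, 0 to 1.13 FPKM in 5XFAD and 0.480 to 1.65 FPKM in compound mice, and each of the 4 mast cell markers was at 0 in at least 17 mice. The part of these cells was not tested. The neutrophil gene S100a8 ranged from 0 to 17.8 FPKM, and the 6 perivascular macrophage markers summed to 9.05 to 22.7 FPKM in control and 5.41 to 25.5 FPKM in 5XFAD mice, with none of the 3 tested called. Astrocyte markers, which these receptors do not define, summed to 200 to 234 FPKM in control and 279 to 345 FPKM in 5XFAD mice, where 1 of the 4 was called, namely Gfap, whose mean went from 25.1 to 97.5 FPKM while that of Slc1a2 was 162 and 173 FPKM. In compound mice the sum was 319 to 433 FPKM, and Gfap and Aqp4 were called against control. The part of astrocytes was not tested either.

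**Figure D2:**
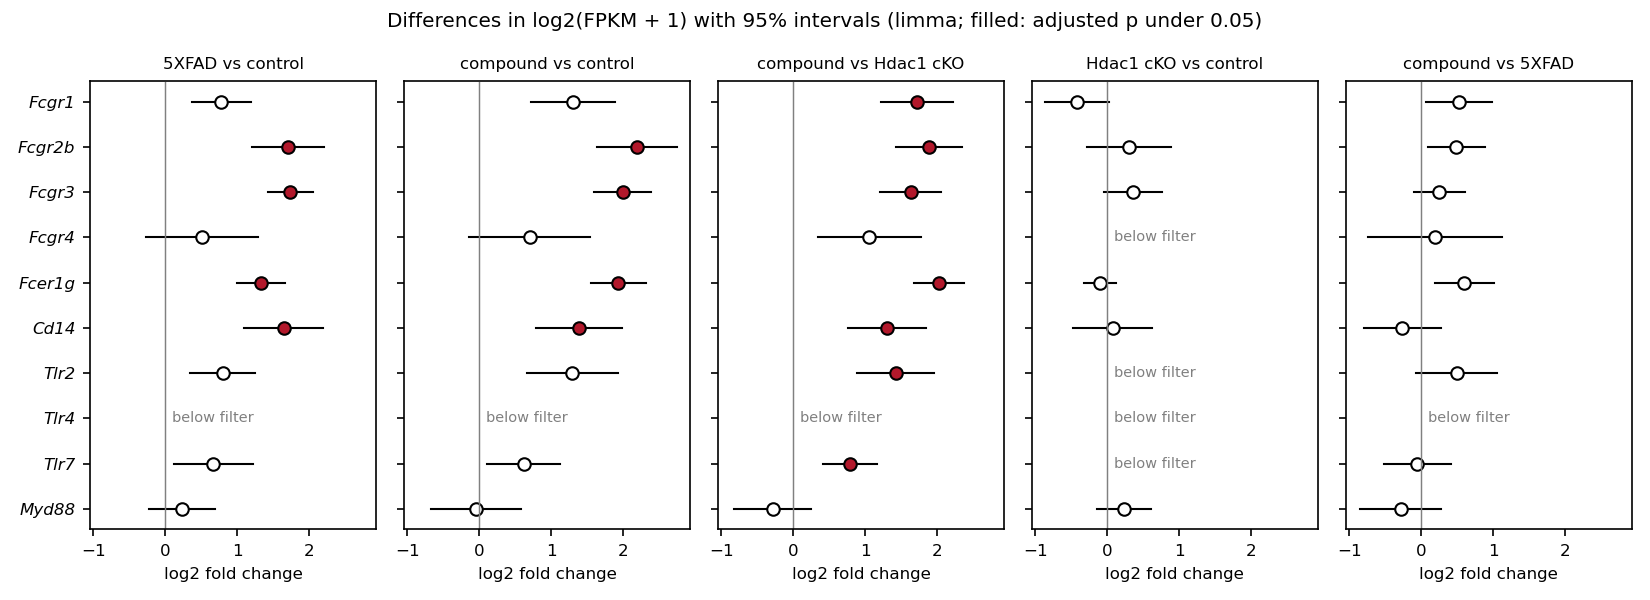
Log2 fold change of each gene in log2(FPKM + 1) with its 95% interval in 5 comparisons (limma), with filled points for an adjusted p under 0.05 and "below filter" for a gene under a mean of 0.5 FPKM in that comparison. Filled points appear in the 3 comparisons of mice with the 5XFAD transgenes against mice without them (4, 4 and 7 genes), and there are none for Hdac1 cKO against control or compound against 5XFAD.

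The comparison of Hdac1 cKO with control mice asks what loss of HDAC1 does without the transgenes. None of the 6 genes that passed the minimum level was called (limma), and none had an unadjusted p under 0.05. Over all genes tested, 0.154% were called and 11.7% had an unadjusted p under 0.05, and 0.498% were higher and 2.87% lower by the looser rule, which took none of the 6. The median log2 fold change of the 6 genes was 0.16, against 0.00 over all genes. These are the same 4 control mice as above.

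Fcgr3 was at 6.56, 8.97, 12.8, 7.29 and 11.2 FPKM in Hdac1 cKO mice 1 to 5, with 3 of the 5 above the highest control mouse. Its log2 fold change was 0.36 (95% interval -0.04 to 0.76; limma, adjusted p = 0.480). Fcgr1 was at 0.513, 0.721, 0.861, 0.413 and 0.219 FPKM, in part below the control mice, with a log2 fold change of -0.42 (95% interval -0.87 to 0.02; limma, adjusted p = 0.452). The 2 activating receptors thus had values of opposite sign, neither past the threshold. Fcer1g, at 85.6, 102, 80.9, 77.98 and 97.7 FPKM, had the narrowest interval, with a log2 fold change of -0.09 (95% interval -0.32 to 0.13). That interval excludes a rise of the size seen in 5XFAD mice.

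Fcgr2b was at 0.678, 1.27, 1.14, 2.59 and 1.52 FPKM, within or just above the range of control mice (log2 fold change 0.30, 95% interval -0.28 to 0.89). Cd14, at 2.21, 1.18, 1.32, 0.508 and 0.806 FPKM, had a log2 fold change of 0.08 (95% interval -0.47 to 0.63). Myd88, at 2.28, 1.57, 2.01, 1.83 and 1.38 FPKM, had one of 0.24 (95% interval -0.13 to 0.61). All 3 overlapped with the control mice.

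The other 4 genes were under the minimum level and were compared singly by two-sided exact permutation tests of their FPKM. Fcgr4 was at 0 in Hdac1 cKO mice 1 to 4 and at 0.125 FPKM, the step of 1 fragment, in mouse 5 (exact permutation p = 0.0952). Tlr2 was at 0.0769, 0.144, 0.194, 0.0620 and 0.197 FPKM (exact permutation p = 0.286), Tlr4 at 0.224, 0.367, 0.0940, 0.271 and 0.143 FPKM (exact permutation p = 0.302), and Tlr7 at 0.341, 0.479, 0.191, 0.229 and 0.436 FPKM (exact permutation p = 0.4603). In none of the 10 genes did the groups separate, as they did upwards in 2.08% and downwards in 2.15% of all genes.

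The compound transgenic mice carry the transgenes and lack Hdac1 in the neural lineage. Against the 4 control mice, Fcgr2b, Fcgr3, Fcer1g and Cd14 rose, by 3.94- to 7.82-fold in mean FPKM, and of all genes tested 0.627% were higher at an adjusted p under 0.05. The ratio of means was higher still for Tlr2, 9.04, which was not called. The 7.82 of Fcgr2b would be larger without control mouse 4, and the 9.04 without control mouse 3. Which of them is higher therefore depends on the mice kept. Against Hdac1 cKO mice, which lack the transgenes, 7 of the 10 genes rose, now with Fcgr1, Tlr2 and Tlr7, where 1.42% of all genes were higher. Of these, Tlr2 and Tlr7 had means of 0.135 and 0.335 FPKM in Hdac1 cKO mice. They reached the minimum level only through the compound mice, so their calls are not independent of that filter. The looser rule took 7 genes against control (2.22% of all genes were higher by it) and 8 against Hdac1 cKO (2.94%). Among the 7 was Tlr2 (control mean 0.251 FPKM), and among the 8 were Fcgr4 (Hdac1 cKO mean 0.0249 FPKM), Tlr2 and Tlr7. In these comparisons they too reached the minimum level only through the compound mice. Against 5XFAD mice, which carry no Cre, none of the 9 genes tested was called. The first of these comparisons uses the same control mice as those above, and the compound mice serve in all 3.

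Fcgr2b was at 7.22, 8.63, 7.78, 11.04 and 5.18 FPKM in compound mice 1 to 5, higher than in any control or Hdac1 cKO mouse. Its log2 fold change was 2.20 against control (SE 0.26, limma, adjusted p = 0.00175) and 1.89 against Hdac1 cKO mice (SE 0.21, adjusted p = 0.000313). Against 5XFAD it was 0.49 (95% interval 0.10 to 0.88, adjusted p = 0.734), with 4 of 5 compound mice above the highest 5XFAD mouse.

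Fcgr3 was at 32.7, 37.1, 22.3, 39.9 and 23.8 FPKM, again apart from all mice without the transgenes. It rose by 2.00 on the log2 scale against control (SE 0.18, limma, adjusted p = 0.000268) and 1.63 against Hdac1 cKO (SE 0.20, adjusted p = 0.000556). Mice 3 and 5 lay among the 5XFAD mice, and the difference from 5XFAD was 0.25 (95% interval -0.10 to 0.61).

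Fcer1g was at 367, 454, 334, 472 and 243 FPKM, and 4 of the 5 compound mice exceeded the highest 5XFAD mouse. Its rise was 1.93 against control (SE 0.17, limma, adjusted p = 0.000367) and 2.03 against Hdac1 cKO (SE 0.16, adjusted p = 3.22e-05). Its difference from 5XFAD, 0.60 (95% interval 0.20 to 1.01), had the smallest unadjusted p of the 10 genes in that comparison, 0.00669, but an adjusted p of 0.711 (limma).

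Fcgr1 was at 2.02, 4.35, 5.46, 6.49 and 3.24 FPKM, all above every mouse without the transgenes. The log2 fold change was 1.73 against Hdac1 cKO (SE 0.23, limma, adjusted p = 0.00120) and 1.31 against control (95% interval 0.72 to 1.89), where it narrowly missed the threshold (adjusted p = 0.0557) and was called without compound mouse 1 (adjusted p = 0.0206). Leaving out any other mouse of that comparison gave adjusted p-values from 0.0762 to 0.184 (limma). Against 5XFAD the Fcgr1 log2 fold change was 0.53 (95% interval 0.07 to 0.99; limma, adjusted p = 0.734). Fcgr4 was at 0.307, 0.850, 0.778, 4.97 and 0.721 FPKM, so that mouse 4 alone was far above the others. All 5 exceeded every Hdac1 cKO mouse, yet the log2 fold change of 1.06 (95% interval 0.35 to 1.77) had an adjusted p of 0.197 (limma), and 38 of the 48 fragments implied for the group came from mouse 4. That value depends on the scale, since the Hdac1 cKO mean rests on 1 implied fragment: it was 3.19 with a pseudocount of 0.1 FPKM (limma, adjusted p = 0.0727) and 5.94 as the log2 ratio of mean FPKM. Its log2 fold change was 0.70 against control (95% interval -0.14 to 1.54; limma, adjusted p = 0.564) and 0.19 against 5XFAD mice (95% interval -0.74 to 1.12).

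Cd14 was at 2.74, 3.44, 5.03, 7.83 and 3.65 FPKM, above all control and Hdac1 cKO mice. It rose by 1.39 against control (SE 0.27, limma, adjusted p = 0.0438) and 1.31 against Hdac1 cKO (SE 0.25, adjusted p = 0.0161). The first call was lost on leaving out any one of control mice 1, 3 and 4 or compound mice 2, 3, 4 and 5 (adjusted p up to 0.140), and the second on leaving out Hdac1 cKO mouse 5 (adjusted p = 0.0510). Cd14 was the only one of the 4 genes called in 5XFAD mice whose mean was lower in compound than in 5XFAD mice, with a difference of -0.26 (95% interval -0.79 to 0.27; limma, adjusted p = 0.836).

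Tlr2 was at 3.40, 1.34, 1.07, 4.18 and 1.35 FPKM, with mice 1 and 4 high and all 5 above every mouse without the transgenes. The log2 fold change was 1.42 against Hdac1 cKO (SE 0.25, limma, adjusted p = 0.00935) and 1.30 against control (95% interval 0.66 to 1.93, adjusted p = 0.0822), and 0.50 against 5XFAD (95% interval -0.07 to 1.06). Tlr7 was at 1.61, 0.991, 0.907, 1.98 and 1.16 FPKM, above all Hdac1 cKO mice, with 3 of them below control mouse 4. Against Hdac1 cKO it reached the minimum level only through the compound mice (means of 1.33 and 0.335 FPKM), as did Tlr2. The Tlr7 log2 fold change against Hdac1 cKO was 0.79 (SE 0.17, limma, adjusted p = 0.0384). That call held on leaving out compound mouse 3 but was lost on leaving out any of the other 9 mice (adjusted p up to 0.110). Against control the Tlr7 log2 fold change was 0.62 (95% interval 0.11 to 1.12, adjusted p = 0.351), and against 5XFAD -0.05 (95% interval -0.52 to 0.42).

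Tlr4 and Myd88 stayed apart from this pattern. Tlr4 was at 0.177, 0, 0.224, 0.714 and 0.207 FPKM, within or below the range of control mice (two-sided exact permutation p = 0.524 against control, 0.817 against Hdac1 cKO and 0.238 against 5XFAD). Myd88 was at 1.89, 0.872, 0.239, 2.41 and 1.77 FPKM, with log2 fold changes of -0.05 (95% interval -0.67 to 0.58) against control, -0.29 (-0.82 to 0.25) against Hdac1 cKO and -0.28 (-0.84 to 0.28) against 5XFAD (limma). Quantile normalization turned the first of these to 0.01, and as the log2 ratio of mean FPKM it was 0.041.

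Over the genes that passed the minimum level, the median log2 fold change was 1.31 against control, 1.42 against Hdac1 cKO and 0.25 against 5XFAD, with medians over all genes of -0.01, -0.01 and 0.00. Fcgr4 and Tlr2 against control, and Fcgr4, Tlr2 and Tlr7 against Hdac1 cKO, reached that level only through the compound mice. The medians against control and Hdac1 cKO are therefore not independent of that filter. Groups did not overlap in 6 of the 10 genes against control (2.75% of all genes) and in 8 against Hdac1 cKO (2.44% of all genes), each time with the compound mice higher, and overlapped in all 10 against 5XFAD (where 0.391% of all genes were higher and 0.216% lower without overlap). The shares are over genes that passed the minimum level. Tlr2 among the 6, and Fcgr4, Tlr2 and Tlr7 among the 8, passed it only through the compound mice. Against 5XFAD, 3 of the 9 genes tested (Fcer1g, Fcgr1 and Fcgr2b) had an unadjusted p under 0.05, against 6.61% of all genes, while 0.00698% of all genes were called. The looser rule took 1 of them, Fcer1g, against 0.691% of all genes. The test of whether the transgenes' effect differs with Hdac1, the interaction term of the fit to all 20 mice, called none of the 9 genes and none of the 14389 genes (limma), with unadjusted p under 0.05 for Fcgr1 (0.95, 95% interval 0.31 to 1.58) and Fcer1g (0.70, 95% interval 0.20 to 1.19), against 8.97% of all genes. These 2 were also the genes that the looser rule took for the interaction, against 2.69% of all genes. The microglia marker sum ran from 275 through 359 to 521 FPKM in compound mice, and its part in these values was not tested.

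**Figure D3:**
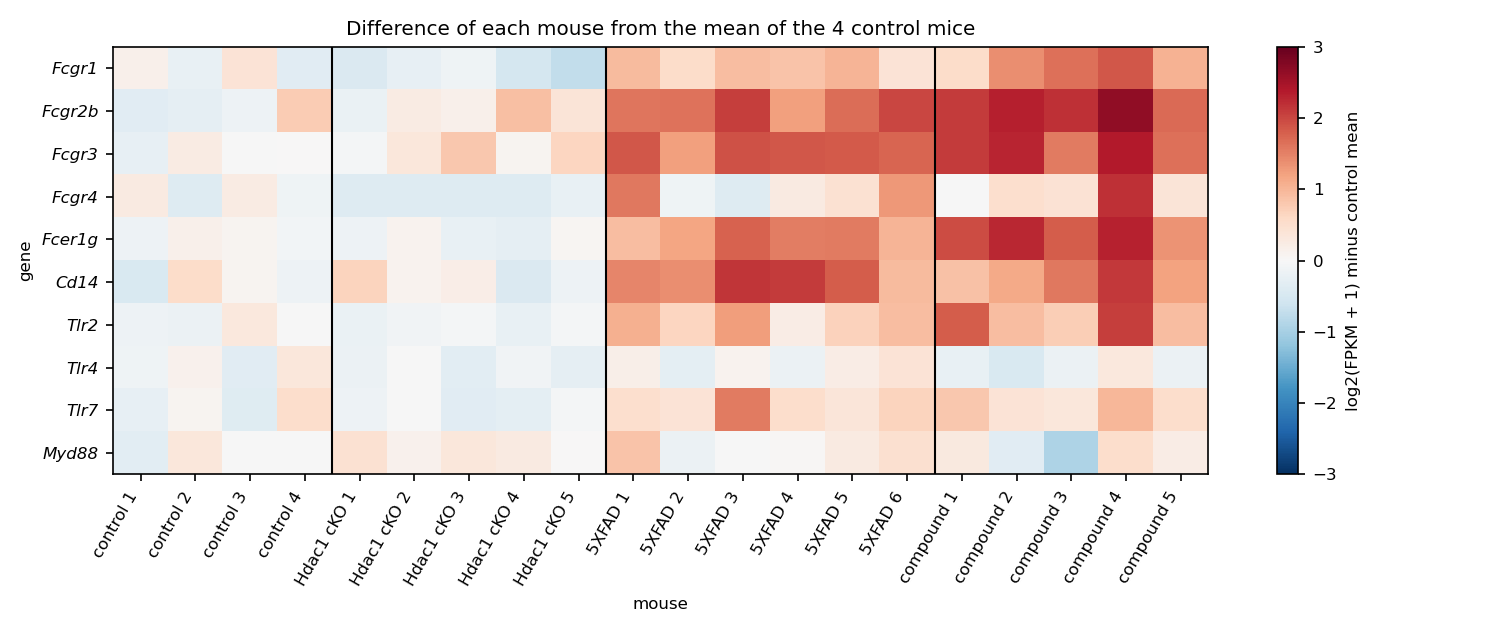
Difference of log2(FPKM + 1) in each of the 20 mice from the mean of the 4 control mice, with genes in rows and mice in columns, red for higher and blue for lower. Compound mouse 4 has the highest value of its group in all 10 rows, and Tlr4 and Myd88 stay pale in most mice.

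Compound mouse 4 was the highest of its group in 10 of 10 genes, whereas compound mice 1, 2, 3 and 5 were highest in none. It also had the highest microglia marker sum of all mice, 521 FPKM against 275 to 404 FPKM in the other 4 compound mice, and the deepest library of its group, and the part of either was not tested. Without it Fcgr2b, Fcgr3 and Fcer1g were still called against control, with log2 fold changes of 2.08, 1.90 and 1.84, and 6 genes were called against Hdac1 cKO. The shares of all genes called without that mouse are not given here. In the 5XFAD group, mouse 3 was highest in 6 of the 10 genes, and its microglia marker sum of 312 FPKM was the highest of that group. After the group means were removed, the 36 pairs among the 9 genes other than Tlr4 had a median Pearson correlation of 0.38 over the 11 mice with the transgenes, from -0.22 for Fcer1g with Myd88 to 0.79 for Fcgr1 with Cd14. Without compound mouse 4 the median fell to 0.08 over 10 mice, with 23 of the 36 pairs above 0 in place of 30.

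The spread within a group differed between genes. The coefficient of variation was higher in compound than in control mice for Fcer1g (25.0% against 9.72%), Fcgr3 (25.2% against 16.5%), Fcgr4 (127% against 84.7%), Tlr4 (101% against 73.8%) and Myd88 (60.5% against 31.5%). It was lower for Fcgr1 (40.9% against 45.8%), Fcgr2b (26.8% against 81.7%), Cd14 (44.6% against 58.0%), Tlr2 (62.6% against 82.0%) and Tlr7 (34.3% against 83.6%). Several of these directions rest on 1 mouse. The direction turns without control mouse 4 for Fcgr2b (2.26 FPKM) and without control mouse 2 for Cd14 (1.95 FPKM). It turns without control mouse 3 for Fcgr1 and Tlr2 (1.70 and 0.547 FPKM). For Fcgr4 and Tlr4 it turns without compound mouse 4 (4.97 and 0.714 FPKM). In control mice the level of a Toll-like receptor rests on 1 to 20 implied fragments per mouse.

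The balance of activating to inhibitory Fc gamma receptors was read as the summed FPKM of Fcgr1, Fcgr3 and Fcgr4 over that of Fcgr2b. Since FPKM values of different genes depend on the lengths used, the ratio serves to compare mice and not as a ratio of molecules. It was 14.7, 15.7, 12.5 and 3.42 in control mice, and 10.4, 7.63, 12.002, 2.97 and 7.62 in Hdac1 cKO mice. In 5XFAD mice it ran from 3.94 through 5.27 to 8.90. In compound mice it was 4.86, 4.91, 3.67, 4.65 and 5.36. All mice of the other 3 groups, with or without the transgenes, were thus below control mice 1 to 3, and control mouse 4, whose Fcgr2b was high, lay among them. The ratio was given no test. In control mice 1 to 3 the Fcgr2b level rests on 2, 5 and 3 implied fragments, so their ratios are imprecise. Of the summed FPKM of all 4 receptors, Fcgr2b included, Fcgr3 made up 61.4% to 86.5%.

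**Figure D4:**
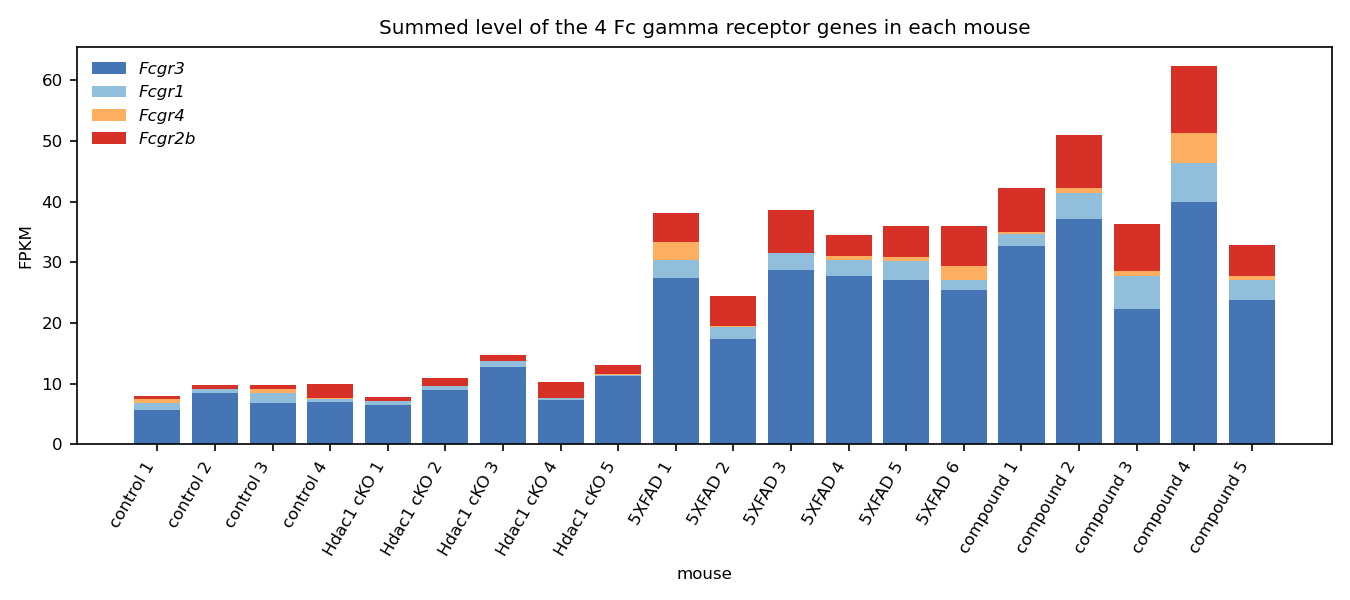
Stacked FPKM of Fcgr3, Fcgr1, Fcgr4 and Fcgr2b in each of the 20 mice, with 1 bar per mouse ordered by group. The inhibitory Fcgr2b is a thin band in control mice 1 to 3 but 22.6% of the bar in control mouse 4. It is 7.69% to 25.2% of the bar in Hdac1 cKO, 10.1% to 20.2% in 5XFAD and 15.7% to 21.4% in compound mice.

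Beyond the receptors, 79 other genes of the 2 pathways were examined in 5 lists. In 5XFAD mice 5 of the 52 tested rose and none fell, in compound mice against control 3 of 50 rose, and in compound mice against Hdac1 cKO 7 of 49 rose, where 0.667%, 0.627% and 1.42% of all genes were higher. None was called in Hdac1 cKO mice against control (0 of 46), in compound against 5XFAD mice (0 of 53) or for the interaction (0 of 51), where 0.154%, 0.00698% and none of all genes were called, so these zeros do not set the lists apart. Those tested had a median log2 fold change of 0.20 in 5XFAD mice (52 genes) and 0.19 in compound mice (50 genes) against control. The medians over all genes tested were -0.01 in both comparisons.

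Against control, the largest rises in mice with the transgenes were in the Fc receptor signalling list. They were those of Trem2 and its adaptor Tyrobp, which the list includes although neither is an Fc receptor. Trem2, a microglial lipid receptor, went from 16.0 ± 4.67 FPKM in control mice (SD, n = 4) to 84.1 ± 16.0 in 5XFAD (n = 6) and 107 ± 31.8 in compound mice (n = 5), and its ITAM adaptor Tyrobp, the counterpart of Fcer1g, from 139 ± 9.93 to 546 ± 123 and 850 ± 282 FPKM. In 5XFAD mice their log2 fold changes were 2.35 and 1.94, and in compound mice against control 2.66 and 2.55. Ptpn6, the SHP-1 phosphatase that binds ITIM motifs, rose by 1.27 in 5XFAD mice, whereas its value of 1.40 in compound mice against control had an adjusted p of 0.0666 (limma). Ptpn6 was called in compound against Hdac1 cKO mice, as were Trem2 and Tyrobp. The ITAM-coupled adaptor Lat2 was called in the comparison of compound with Hdac1 cKO mice (1.55), and whether it differs between comparisons was not tested. In 5XFAD mice 3 of the 14 genes tested were called (Trem2, Tyrobp and Ptpn6), and the kinase Lyn (0.30, limma, adjusted p = 0.610) was not. The kinases Syk, Fgr and Btk were under the minimum level there and were not tested.

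In the Toll-like receptor signalling list none of the 22 genes tested was called in 5XFAD mice and none of 21 in compound mice against control, counts that the shares of all genes called, 0.667% and 0.627%, would also give. Its median log2 fold changes were 0.07 and 0.10. Irf5, a transcription factor downstream of Myd88, was at 0.292 to 0.916 FPKM in control, 0.703 to 2.66 FPKM in 5XFAD and 1.23 to 4.00 FPKM in compound mice, all of the last above the control range. It was the only one called in compound mice against Hdac1 cKO (0.96), and its value against control, the highest of the list there, was 1.09 (limma, adjusted p = 0.0870). Irak4, a kinase that Myd88 recruits, had the highest value of the list in 5XFAD mice, 0.61 (limma, adjusted p = 0.357). Among the other Toll-like receptors and accessory proteins, Ly86, the partner of the receptor homologue Cd180, was the 1 gene called in each of the 3 comparisons of mice with and without the transgenes, at 28.9 ± 6.90 FPKM in control (SD, n = 4), 104 ± 17.8 in 5XFAD (n = 6) and 111 ± 33.3 in compound mice (n = 5). The lipopolysaccharide-binding protein Lbp had values of the opposite sign (-1.12 in 5XFAD, -1.63 in compound and -2.20 in Hdac1 cKO mice against control), none called, and was at 1.45 FPKM in the lowest control mouse, mouse 1, which also had the lowest Ttr of the 4, and 14.4 FPKM in the highest, and the part of choroid plexus tissue was not tested. Of the Toll-like receptor response genes, Il1b had a log2 fold change of 0.97 in 5XFAD mice (limma, adjusted p = 0.168) and only Cd86, a costimulatory ligand, was called, in compound against Hdac1 cKO mice (1.22). Il1b (mean 0.0682 FPKM in control mice) and Cd86 (0.430 FPKM in Hdac1 cKO mice) reached the minimum level only through the mice with the transgenes. The call of Cd86 is therefore not independent of that filter. Of the other Fc receptors the microglial receptor-like gene Fcrls rose in 5XFAD mice (1.28), and in compound mice its value against control was 0.86 (adjusted p = 0.476).

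**Figure D5:**
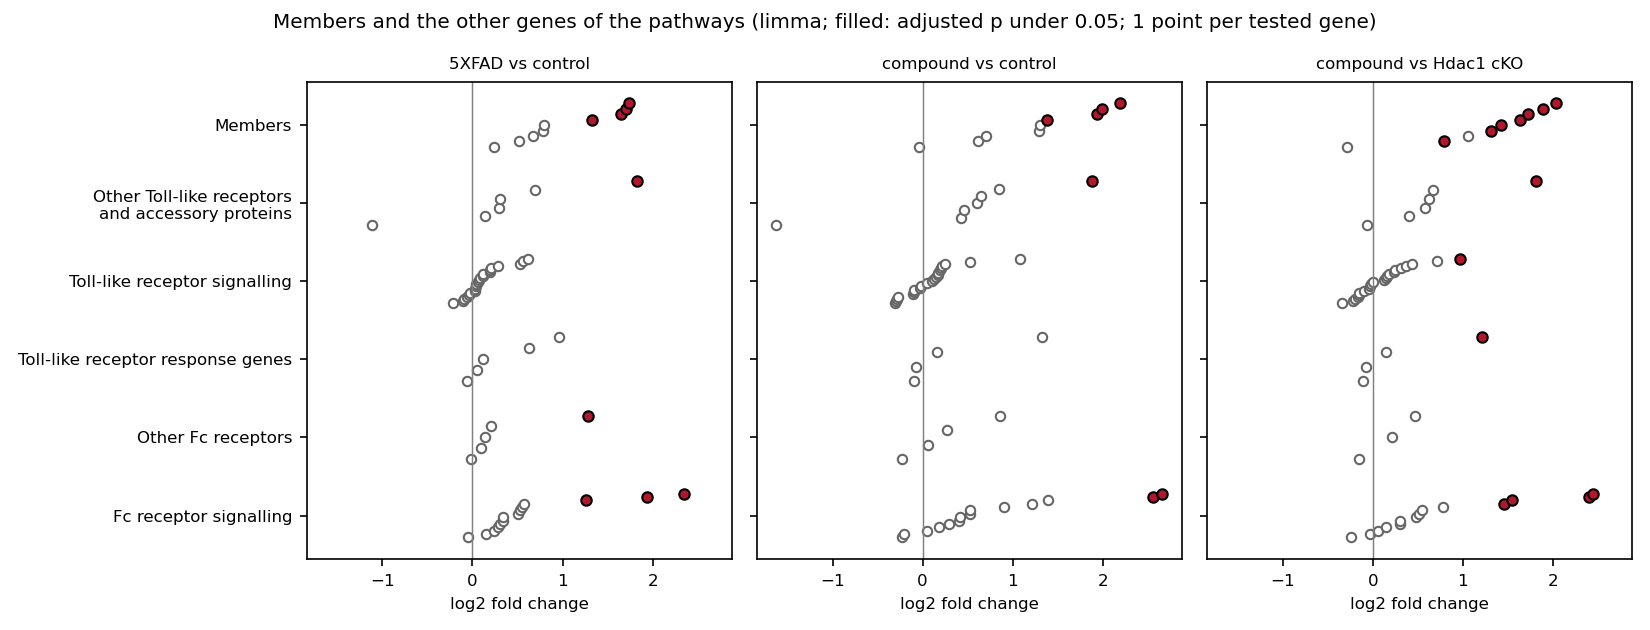
Log2 fold change of the 10 genes ("Members") and of the other genes of their pathways in 3 comparisons, with 1 point per gene tested and filled points for an adjusted p under 0.05 (limma). In 5XFAD against control the Toll-like receptor signalling list has 0 filled points of 22. The Fc receptor signalling list has 3 of 14 (Trem2, Tyrobp and Ptpn6), where 0.667% of all genes were higher. The lists were not compared by a test.

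The genes whose pattern was most like the mean z-score of the 9 genes other than Tlr4 were, over the 20 mice, the lysosomal proteases Ctss, Ctsz and Ctsd, the astrocyte filament gene Gfap and the complement gene C1qb. Since the mice fall into sets with and without the transgenes, that likeness includes the difference between groups, and how much of it was not tested. After removal of the group means the leading 5 of 14380 genes were Vim (Pearson r = 0.85), Ctss (0.83), Ccng1 (0.81), Dhrs1 (0.79) and Trf (0.79). Leaving out the mice farthest from the median score, compound mouse 4 and 5XFAD mouse 2, lowered these to 0.66, 0.64, 0.74, 0.60 and 0.76 over 18 mice.

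The same genes were read in GFAP-stained nuclei sorted from the cortex of Hdac1f/f control mice (n = 3) and Hdac1f/f, Nestin-Cre mice (n = 4), all 13 months old and without the transgenes, by another library kit, and the comparison was made within this set. These nuclei are labelled astrocytic by the sort, and Gfap had a median of 77.1 FPKM. Microglia markers were present too, with medians of 8.64 FPKM for Cx3cr1 and 7.59 FPKM for Csf1r, as was neuronal Rbfox3 at 16.3 FPKM, and their part was not tested. Hdac1 was at 14.47, 9.91 and 22.3 FPKM in control and 9.71, 11.5, 5.80 and 8.73 FPKM in Hdac1 cKO nuclei, so the groups overlapped and the labels could not be checked firmly by this gene.

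None of the 8 genes tested was called (limma) and none had an unadjusted p under 0.05, against 0.0133% and 4.7% of all genes. Fcer1g was at 9.65, 14.8 and 3.39 FPKM in control and 11.4, 1.40, 16.8 and 14.7 FPKM in Hdac1 cKO nuclei, with full overlap (log2 fold change 0.08, 95% interval -2.08 to 2.23). Fcgr3 was at 3.496, 5.57 and 3.17 FPKM in control and 2.20, 1.10, 5.05 and 5.73 FPKM in Hdac1 cKO nuclei (-0.29, 95% interval -1.17 to 0.59). Fcgr1 (0.12, 95% interval -0.64 to 0.88) and Fcgr2b (-0.06, 95% interval -0.72 to 0.61) were at 1.43 FPKM or less in every library, and Fcgr4 was listed at 0 in all 7. Tlr2 was the only gene whose groups did not overlap, at 1.15, 0.720 and 1.00 FPKM in control and 0.0415, 0.621, 0.109 and 0.685 FPKM in Hdac1 cKO nuclei. Such a gap in the lower direction held for 2.75% of all genes, and the log2 fold change of -0.55 (95% interval -1.17 to 0.08) had an adjusted p of 0.984 (limma).

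Tlr4 was at 0.434, 1.05 and 1.23 FPKM in control and 0.211, 0.626, 0.239 and 0.156 FPKM in Hdac1 cKO nuclei, with 1 Hdac1 cKO library inside the control range (-0.53, 95% interval -1.14 to 0.08; limma, adjusted p = 0.984). Tlr7, under the minimum level, was at 0.441, 0.650 and 0.975 FPKM in control and 0, 0, 0.754 and 0.0948 FPKM in Hdac1 cKO nuclei (two-sided exact permutation p = 0.171). Cd14 was at 0.565, 0.782 and 0 FPKM in control and 0.681, 0.392, 3.22 and 1.76 FPKM in Hdac1 cKO nuclei, with 2 libraries of the latter above all others (0.70, 95% interval -0.19 to 1.59; limma, adjusted p = 0.984). Myd88 was at 3.29, 6.67 and 4.53 FPKM in control and 3.30, 3.80, 2.27 and 4.54 FPKM in Hdac1 cKO nuclei, with overlap (-0.37, 95% interval -0.96 to 0.23).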

How the data were processed

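Hippocampal RNA from 20 mice and RNA of GFAP-stained cortical nuclei from 7 mice had been sequenced, with 1 library per mouse, so p-values measure the spread between mice. The deposited tables hold FPKM, which the authors made by aligning reads to mm9 with TopHat and estimating abundance with Cufflinks 2.0.0. Cufflinks shares out reads that fit several genes, and dividing by transcript length suits whole-transcript libraries better than 3′ libraries. Of 34 samples listed, 7 were not analysed here (6 of chromatin immunoprecipitation and 1 of GFAP-stained control nuclei).

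FPKM were taken as deposited, and log2(FPKM + 1) was tested with limma 3.58.1 (R 4.3.3, trend and robust options) over every gene whose mean in the mice compared reached 0.5 FPKM, with Benjamini-Hochberg adjustment over all of them and calls at an adjusted p under 0.05, two-sided. FPKM are not counts, so no count model was used, and adding 1 understates the change of low genes. Of genes under that mean, those of the 10 with a value above 0 were compared by exact permutation tests (scipy 1.17.1), and other genes were not tested. Tables were handled with Python 3.11.15, numpy 2.4.6 and pandas 2.3.3, and plots drawn with matplotlib 3.10.9. The fit was tested on simulated data. Depth relative to control mouse 1, and implied fragments (within 0.1 of a whole number plus 0.001 per fragment), were read from the steps between low FPKM values; both are relative, so no counting interval is given. Implied fragments were used for 8 of the 10 genes, since Fcgr3 and Fcer1g gave whole steps in only 7 and 8 of 20 libraries.

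All 10 genes are named in every comparison of 1 group with another, Hdac1, Thy1 and Ttr as checks of labels and dissection, genes of the 5 pathway lists where called and otherwise the 2 with the largest change in a list, listed cell type markers, and the 5 most alike genes. Syk, Lyn, Fgr and Btk were named after their values were seen. Some listed markers are not reported here. The genes and lists were chosen with earlier results of these data known. Alternatives were another pseudocount (0.1), no minimum or a minimum of 1 FPKM, median scaling, quantile normalization, 1 fit to all 4 groups, limma without options, the replicate number as a block, a call by a fold of 1.5 with an unadjusted p under 0.05, the log2 ratio of mean FPKM, and leaving out each mouse.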

Additional observations from a re-analysis of the deposited data

Results flagged for a closer look

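Within each hippocampal group the highest and lowest mouse of every gene was set against the rest by Dixon's ratio, and 4 of 40 sets had a mouse standing apart, where chance gives about 1 in 20. Fcgr3 in 5XFAD mouse 2 was the lowest of its group at 17.3 FPKM. Fcgr4 in Hdac1 cKO mouse 5, at 0.125 FPKM, was the only value above 0 of its group, and with the other 4 mice at 0 any value above 0 would stand apart, so this one says nothing of the mouse. Fcgr4 in compound mouse 4, at 4.97 FPKM, was the highest of its group. Tlr7 in 5XFAD mouse 3 was the highest of its group at 3.37 FPKM.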

How the results depend on the processing

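With a call by a fold of 1.5 and an unadjusted p under 0.05 the number of genes called was 7 in 5XFAD and 7 in compound mice against control, 1 in compound against 5XFAD mice and 2 for the interaction, in place of 4, 4, 0 and 0. Leaving out 1 mouse at a time gave 4 in every case for 5XFAD against control, 3 to 5 for compound against control, 5 to 7 for compound against Hdac1 cKO, and 0 throughout for Hdac1 cKO against control, compound against 5XFAD, the interaction and the GFAP-stained nuclei. The shares of all genes called in these fits, and in those with the replicate number as a block, are not given here. Mice with the same replicate number did not deviate together (correlations of -0.11 to 0.08 over 22 pairs), so the numbers do not pair them; with the replicate number as a block the counts were 3 (5XFAD against control), 0 (Hdac1 cKO against control), 3 (compound against control), 0 (compound against 5XFAD), 5 (compound against Hdac1 cKO), 0 (interaction) and 0 (GFAP-stained nuclei), and Fcgr2b in 5XFAD mice had an adjusted p of 0.103 (limma). Cd14 in compound mice against control had adjusted p-values of 0.0719 with no minimum level, 0.0767 without limma's options and 0.135 with the block, and against Hdac1 cKO 0.0956 with the block. Tlr7 in compound against Hdac1 cKO mice had 0.0649 in the fit to all 4 groups and 0.128 with the block. Fcgr1 and Tlr2 in compound against control mice were called in that fit (0.00186 and 0.00502), with a pseudocount of 0.1 (0.0495 and 0.0451) and with quantile normalization (0.0474 and 0.0496), and Fcgr1 with median scaling (0.0493). The cause of these shifts was not tested. The size of low genes' changes depends on the pseudocount by construction: Tlr2 had log2 fold changes of 0.80 in 5XFAD and 1.30 in compound mice against control, which became 1.95 and 2.71 with a pseudocount of 0.1 and 2.27 and 3.18 as the log2 ratio of mean FPKM, and Fcgr4 in compound against Hdac1 cKO mice went from 1.06 to 3.19 and 5.94. By that ratio the values of 6 genes (Fcgr1, Fcgr2b, Fcgr4, Cd14, Tlr2 and Tlr7) lay farther from 0 by more than the spread between mice in each of the 3 comparisons of mice with and without the transgenes, as did that of Fcgr1 in Hdac1 cKO against control mice and those of 4 genes in the nuclei. Log2 fold changes that turned sign, none of them called, were those of Myd88 in compound against control mice (quantile normalization 0.010, log2 ratio of mean FPKM 0.041, leaving out 1 mouse -0.19 to 0.18), Tlr7 in compound against 5XFAD mice (quantile normalization 0.000208, leaving out 1 mouse -0.15 to 0.12), Fcgr2b for the interaction (pseudocount of 0.1 -0.021, leaving out 1 mouse -0.069 to 0.34), and, in the nuclei, Fcgr1 (pseudocount of 0.1 -0.12) and Fcgr3 (block 0.027, leaving out 1 mouse -0.53 to 0.027). On leaving out 1 mouse alone, signs also turned for Cd14 in Hdac1 cKO against control (-0.073 to 0.26), Fcgr4 in compound against 5XFAD (-0.18 to 0.40), Fcgr3 (-0.21 to 0.0059) and Tlr7 (-0.060 to 0.29) for the interaction, and Fcgr2b (-0.22 to 0.12) and Fcer1g (-0.44 to 0.74) in the nuclei. The correlations without compound mouse 4 or without the mice farthest from the median score were added after the data were seen. Levels below about 1 FPKM rest on few fragments, which limits what could be detected for Fcgr4, Tlr2, Tlr4 and Tlr7. The sizes given for the called genes Fcgr2b and Cd14 are also imprecise, since control mice had 2 to 13 and 2 to 18 implied fragments.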
